A study of Mus musculus with 28 samples.

Results

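Single hippocampal neurons captured by TIVA from living tissue were compared with single hippocampal neurons captured by TIVA from culture. TIVA (transcriptome in vivo analysis) uses a light-activated tag that enters cells; a 405 nm laser opens it in a chosen cell, and the opened tag holds that cell's polyadenylated RNA for capture. The comparison covers 9 of the 28 libraries of the series, chosen by their source name: 5 from tissue and 4 from culture. All come from C57BL/6 mice, a standard inbred strain, with no genetic change named. Each library is 1 cell. Tissue neurons sat in acute coronal slices of mice aged 8 to 10 days and were photolysed in CA1, the pyramidal field of the hippocampus. Neurons of the cultured libraries were kept on coverslips for 7 to 9 days. The settings differ in more than tissue against culture. Slices took up the tag at 30 µM over 90 min and were scanned at 80% laser power and 100.85 µs per pixel. Coverslips received it at 10 µM over 15 min and were scanned at 30% laser power and 50 µs per pixel. The effect of these settings and that of the cells' surroundings cannot be told apart. Per the labels' protocols, the aspirated field held more than the photolysed cell, and each sample was amplified by 3 rounds of in vitro transcription. For the coverslips that protocol also speaks of tissue, so what was aspirated with a cultured cell is uncertain.

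A neuron in a slice keeps most of its dendrites, its glial neighbours and part of its inputs. A neuron on a coverslip was taken apart from its tissue, grew new processes on a flat surface and formed synapses with whichever cells were near. Because a single neuron holds little RNA, rare transcripts can be lost at capture or in the first round of amplification, and a transcript missing from a library is not shown to be missing from the cell.

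The measurement is a read count for each of 28661 features, which are UCSC known-gene identifiers; 11967 of them join several isoform identifiers in 1 name. None of the 55419 single identifiers matched the gene tables used here (0 matches), so features are given by identifier, no sequences are shown, and the label "neuron" was not checked against marker genes. Without symbols, at most 2 identifiers are named in each direction. Each library is 1 cell and no label names its animal or culture, so each setting counts as 1 sample; there is thus no test between them and no p-value. Differences are set beside the standard deviation (SD) or the range over libraries, and n is the number of libraries.

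Assigned reads per library (reads counted to a feature, in M, for mega) ranged from 24.1 to 33.4 M in tissue and from 9.13 to 26.2 M in culture. A feature with 0 reads could still stand at up to 3 reads, which in CPM (counts per mega of assigned reads) is 0.0897 to 0.124 in tissue and 0.114 to 0.329 in culture. Reads outside features made up 15.8% to 39.2% of all counted reads in tissue and 19.9% to 38.4% in culture, so the settings overlapped. Reads that fell on more than 1 feature, the ambiguous reads, did not overlap: 1.87% to 2.54% in tissue and 5.79% to 10.9% in culture. Summed over libraries, the ambiguous share was 2.07% in tissue (exact binomial 95% interval 2.068% to 2.072%) and 9.51% in culture (9.509% to 9.52%). Intervals here and below cover counting error only.

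The first difference lay in how few features carried the reads of a cultured neuron. The most abundant feature took 1.69% to 2.62% of the reads of a tissue library. In cultured libraries 1, 2, 3 and 4 it took 13.6%, 19.97%, 20.2% and 5.54%. Each library's own 6 most abundant features held 4.99% to 6.12% of its reads in tissue and 36.4%, 60.2%, 56.1% and 14.7% in cultured libraries 1 to 4. The lowest cultured library was above the highest tissue library, and the cultured libraries differed among themselves more than the tissue libraries did. The top 6 were the same 6 features in all 4 cultured libraries. In tissue libraries 1 to 5 these features held 0.407%, 0.279%, 0.752%, 1.56% and 1.10%, and the ratio of mean CPM, culture to tissue, ran from 24.2 to 165. Since they were picked as the most abundant in culture, these last values describe them and are no separate evidence of a difference. Ambiguous shares, at 10.9%, 10.4%, 8.98% and 5.79% in cultured libraries 1 to 4, were also lowest in library 4; their part in this result was not tested.

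Much of the concentration of the reads in cultured libraries lay in those 6 features. The number of features needed to reach 50% of the reads was 594, 557, 567, 604 and 524 in the tissue libraries. It was 153, 4, 4 and 459 in the cultured ones. With the 6 features set aside, the share of the remaining reads in the 50 most abundant remaining features was taken. It was 15.4% to 19.0% in tissue and 12.5% to 17.4% in culture, so that the ranges overlapped. The 6 were picked as the most abundant in culture after seeing the data, and the tissue libraries kept their own top features. Setting them aside thus had to lower the cultured shares more, and the overlap is a description only. All 5 tissue libraries had the same most abundant feature, and 3 of the 4 cultured libraries shared another. Of the 50 most abundant features, 19 were common to all tissue libraries and 20 to all cultured libraries, 7 of them the same in all 9.

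**Figure D1:**
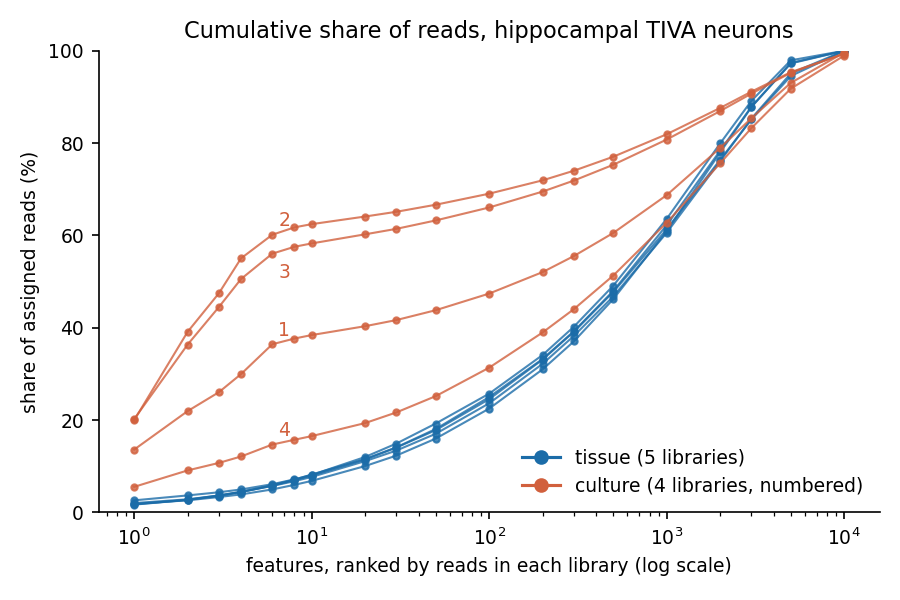
Cumulative share of assigned reads (%, vertical axis) held by the most abundant features of each library, ranked (horizontal axis, log scale), with 1 line per library. The 5 tissue lines lie nearly on each other, while cultured libraries 2 and 3 reach 60.2% and 56.1% by rank 6 and cultured library 4 only 14.7%.

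Tissue neurons held fewer detected features than cultured neurons. With every library thinned once to 9.13 M reads, the smallest total, and 1 read taken as detection, tissue libraries 1 to 5 held 10806, 10274, 11080, 9833 and 9402 features. Cultured libraries 1 to 4 held 13289, 15877, 16398 and 17190. Every tissue library lay below every cultured library, and the medians of 10274 (SD 687, n = 5) and 16137.5 (SD 1688, n = 4) differed by −5863.5. The gap was present at low depth as well. At 0.25 M reads the medians were 7437 in tissue and 10380 in culture, a ratio of 0.716, and at 1 M reads 8487 and 13188, a ratio of 0.644. From 2 M reads upwards the ratio stayed between 0.632 and 0.637.

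The missing features were those of low and middle level. At the common depth 1485 to 2132 features lay between 1 and 10 CPM in a tissue library, against 3421 to 5957 in a cultured one. Between 10 and 50 CPM the tissue libraries held 2169 to 3521 and the cultured libraries 4699 to 4794. The order was opposite above 100 CPM, where 2064 to 2323 features of a tissue library and 676 to 1796 of a cultured one lay between 100 and 1000 CPM, and 106 to 119 against 25 to 103 lay at 1000 CPM or more. The median level of the features at 1 CPM or more was 33.5 to 50.5 CPM in tissue and 10.8 to 22.05 CPM in culture. A tissue library thus had fewer detected features, and those it had were at higher CPM. Counted at 50 CPM or more, the difference of medians was 1318 (3819 in tissue, 2501 in culture), and it was −377.5 when the 50 features with the highest mean share over the 9 libraries were left out of the totals, called the trimmed scaling from here on. The abundance of a few features in culture lowers the CPM of all others there.

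**Figure D2:**
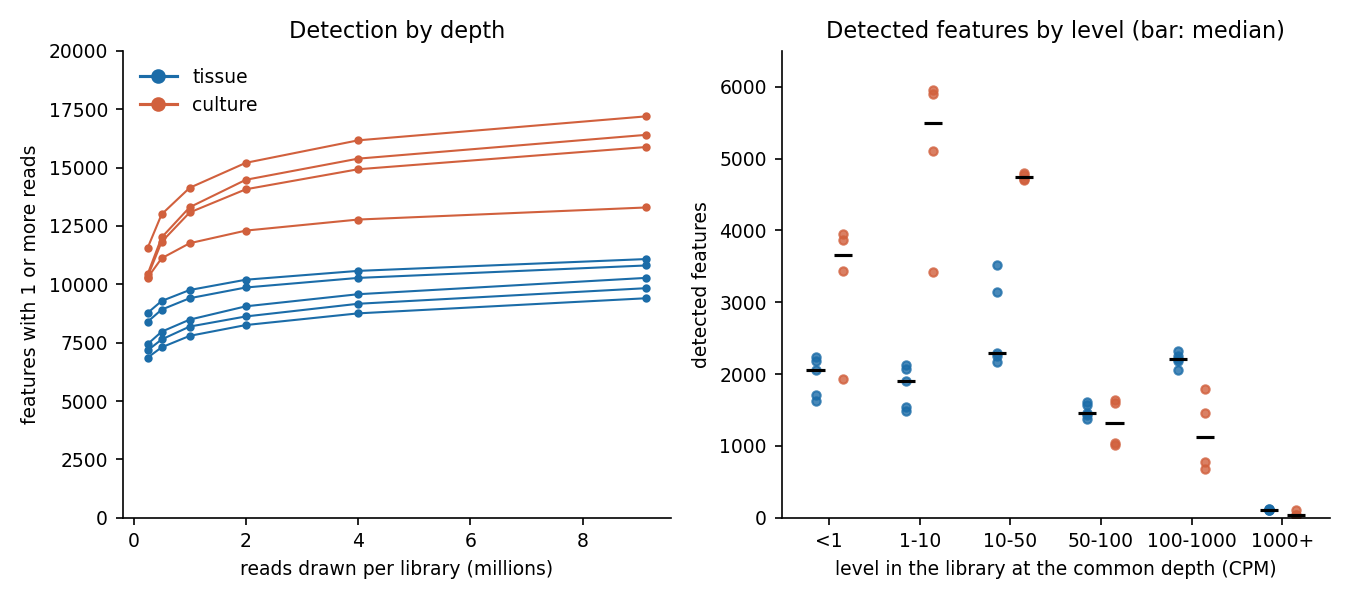
Left, features with 1 or more reads (vertical axis) against reads drawn per library (M, horizontal axis), with 1 line per library. Right, detected features per library by level (CPM) at the common depth, with points for libraries and bars for medians. Tissue lines lie below cultured lines at every depth drawn, and in the class of 1 to 10 CPM the tissue libraries reach at most 2132 and the cultured libraries at least 3421.

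Features detected in every tissue library were nearly always found in culture, and the converse held less. Fewer features were detected per tissue library, and this order is not separate from that result. At the common depth 19641 of all 28661 features were found in 1 or more cultured libraries and 13805 in 1 or more tissue libraries. In all 5 tissue libraries 6854 features were detected, and in all 4 cultured libraries 12307. Of the 6854 features, 6852 were found in 1 or more cultured libraries and 6757 in all 4. Of the 12307 features, 11561 were found in 1 or more tissue libraries and 746 in none. These 746 features were mostly low, with a median of 2.99 CPM in culture, and 77 of them averaged 10 CPM or more, the highest at 90.8 CPM. In the other direction only 2 features were found in all 5 tissue libraries and no cultured one, the higher averaging 42.7 CPM in tissue. The libraries of a setting also overlapped to a different extent. Of the features found in any cultured library, 62.7% were in all 4. For each choice of 4 tissue libraries, 52.6% to 56.0% of the features in any were in all 4.

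The settings also differed in how often a feature was high in 1 library and near 0 in another. In this measure, loss at capture or amplification and a difference between the cells cannot be told apart. A feature was taken as on at 50 CPM or more and as off below 1 CPM. Between 2 tissue neurons a median of 8.99% of the features on in the first were off in the second (4.02% to 16.2% over 20 ordered pairs). Between 2 cultured neurons the median was 0% and the highest 0.286% (12 ordered pairs). The share depended on which tissue neuron was the second of the pair: its median was 5.35%, 9.65%, 5.07%, 11.95% and 14.1% for libraries 1 to 5, and the libraries with the highest values, 4 and 5, were those with the fewest detected features. Raising the level that counts as on to 300 CPM brought the tissue median to 0.525%. Across the settings, features on in a cultured neuron were off in a tissue neuron at a median of 3.32% (0.918% to 12.2% over 20 pairs), and features on in a tissue neuron were off in a cultured neuron at 1.00% (0.370% to 3.40%). By these medians a tissue library lacked a larger share of the features on in another tissue library than of those on in a cultured library. That order was the same with on at 20 CPM (14.9% against 10.2%) and at 100 CPM (4.10% against 1.93%), and opposite at 300 CPM (0.525% against 0.945%). A limit of 50 CPM took in a median of 3819 features in tissue and 2501 in culture. With the trimmed scaling it took in 4149 and 4526.5. The limit thus need not mark the same level in both settings. The on-off shares were not computed with the trimmed scaling.

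Whole profiles were compared by correlation. Pearson's r of log2(CPM + 10) was taken across 9928 features, those averaging at least 5 CPM over the 9 libraries; features of 1 library share its depth and amplification, and r is a description. The median was 0.629 within tissue (0.540 to 0.705, 10 pairs), 0.826 within culture (0.781 to 0.962, 6 pairs) and 0.635 between the settings (0.526 to 0.744, 20 pairs). The ranges within tissue and between the settings overlapped widely. By the median, 1 of the 5 tissue libraries was nearer to its own setting, library 2, and all 4 cultured libraries were. By the single closest library, 3 of the 5 tissue libraries (1, 2 and 4) and all 4 cultured libraries had it in their own setting. Tissue library 3, the deepest and the one with the most features, had a median r of 0.669 with the other tissue libraries and 0.721 with the cultured ones. Cultured libraries 2 and 3 were the closest pair at 0.962. Their counts differed by a chi-square of 48.6 per degree of freedom, the lowest of the 6 cultured and 10 tissue pairs and above the sampling noise of reads. That value does not show that they are separate cells, since repeated amplifications of the same RNA could differ as much. They are kept apart as the labels list them, and leaving out either is among the alternatives.

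The spread between neurons depended on the level of a feature. For the 4514 features with a mean of 20 to 100 CPM, the median SD of log2(CPM + 10) was 1.22 over the tissue libraries and 0.571 over the cultured ones, and the SD was larger in tissue for 88.3% of them. Above 300 CPM (440 features) tissue was the lower, with 0.592 against 0.780 in culture. That second order rested on the scaling and on 1 library. With the trimmed scaling the medians were 0.593 and 0.516, and without cultured library 4 the tissue minus culture difference was 0.14 instead of −0.19. The order at 20 to 100 CPM was the same under that scaling, with 1.29 and 0.517.

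**Figure D3:**
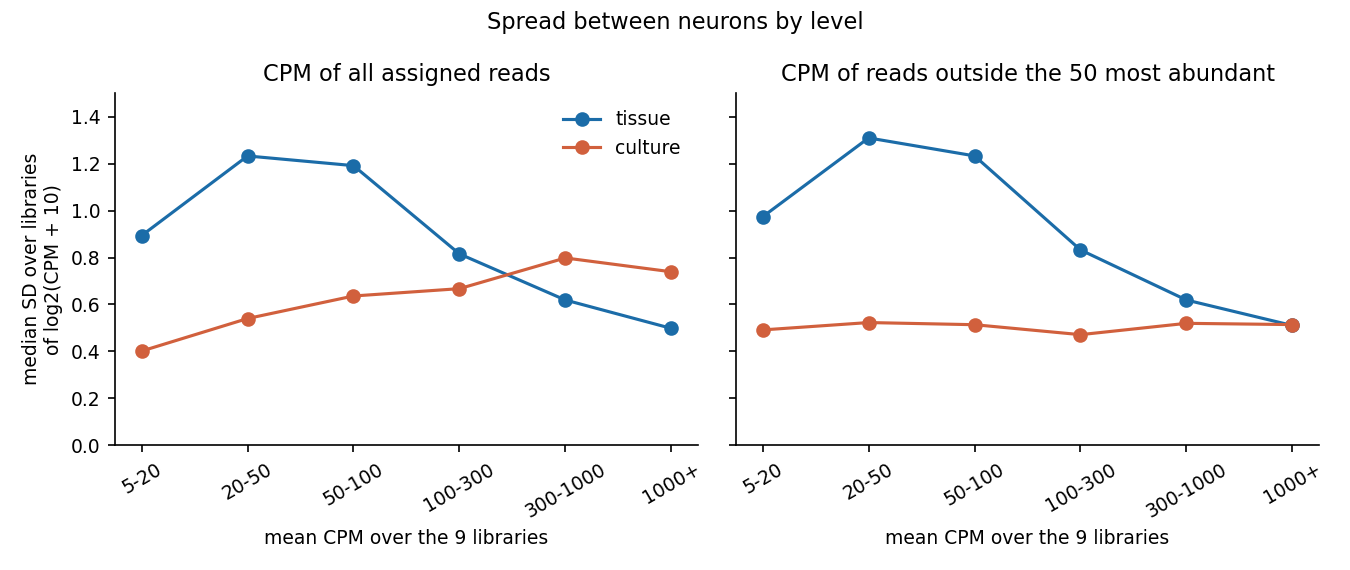
Median SD over libraries of log2(CPM + 10) (vertical axis) for features classed by their mean CPM over the 9 libraries (horizontal axis), with CPM over all assigned reads on the left and the trimmed scaling on the right. Tissue is above culture at 20 to 100 CPM in both panels (1.22 against 0.571 on the left), and at 300 to 1000 CPM it is below culture on the left (0.619 against 0.798) and above it on the right (0.619 against 0.519).

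Levels were compared for 7248 features, those averaging at least 20 CPM in 1 or both settings, as the difference between the means of log2(CPM + 10), a scale that understates the change of low features. A difference of 4-fold or more was taken as a fixed limit of size. By this limit 217 features were higher in tissue, 2.99% of those measured, and 98 were higher in culture, 1.35%. These counts have no error of their own, since each setting is 1 sample. The split depended on the scaling. With the trimmed scaling the counts were 71 higher in tissue (0.824%) and 456 higher in culture (5.29%). They were 134 and 149 with TMM, 63 and 221 with DESeq2 size factors, and 486 and 702 with a pseudocount of 1 CPM in place of 10 CPM. The median log2 difference of all measured features was 0.37 by library total, 0.14 with TMM, −0.19 with DESeq2 and −0.38 with the trimmed scaling. All 98 features higher in culture passed the limit under all 4 scalings, and so did 60 of the 217 features higher in tissue. The other scalings all moved the median towards culture relative to the library total. Features higher in culture thus tended to stay past the limit, and features higher in tissue to drop out. These counts are therefore no evidence that the culture set is the firmer one.

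Overlap between libraries was counted separately, on CPM over all assigned reads only. In 522 features, 7.2% of those measured, every tissue library lay above every cultured library, and in 225 features, 3.1%, every cultured library lay above every tissue one. Both conditions, no overlap and 4-fold or more, held for 155 features higher in tissue (2.14%) and 76 higher in culture (1.05%). Among the 60 features higher in tissue under all scalings, 48 had no overlap. Overlap was not counted with the trimmed scaling, under which the 4-fold counts turned from 217 and 98 to 71 and 456. The larger counts on the tissue side thus need not hold under it.

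By this limit, 4-fold differences were more frequent among abundant features. Of the features whose higher setting averaged 20 to 100 CPM, 0.636% were 4-fold higher in tissue and 0.903% were 4-fold higher in culture. At 100 to 1000 CPM these shares were 7.22% and 1.82%, and among the 116 features at 1000 CPM or more 19.8% (23 features) and 11.2% (13 features). The pseudocount of 10 CPM narrows the differences of the low features. Under it a feature averaging 20 CPM cannot reach 4-fold, even if it is absent from the other setting. The small shares in the class of 20 to 100 CPM are thus partly set by the rule. By the number of isoform identifiers joined in a feature, the shares 4-fold higher in tissue and in culture were 3.49% and 2.15% for a single identifier (2236 features). They were 3.09% and 1.03% for 2 to 4 identifiers (3883 features) and 1.68% and 0.886% for 5 or more (1129 features). The difference between these classes was not tested.

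The features 4-fold higher in culture held a large part of the reads there. They took 39.5%, 63.7%, 59.7% and 17.7% of the reads of cultured libraries 1 to 4 and 0.485% to 2.15% in tissue. Most of this was the 6 shared top features: the other 92 took 3.08%, 3.57%, 3.62% and 3.03% in cultured libraries 1 to 4 and 0.206% to 0.614% in tissue. Over the summed reads the shares were 50.7% in culture (exact binomial 95% interval 50.71% to 50.73%) and 1.196% in tissue (1.194% to 1.198%). The features 4-fold higher in tissue held 11.7% to 14.5% of the reads of a tissue library and 1.59%, 1.27%, 1.56% and 3.31% of those of the cultured libraries. Both sets were picked by their difference between these libraries, so these shares describe them and are no separate evidence of a difference. In both sets cultured library 4 lay nearest to tissue. Without it the count of features 4-fold higher in tissue was 350 instead of 217.

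**Figure D4:**
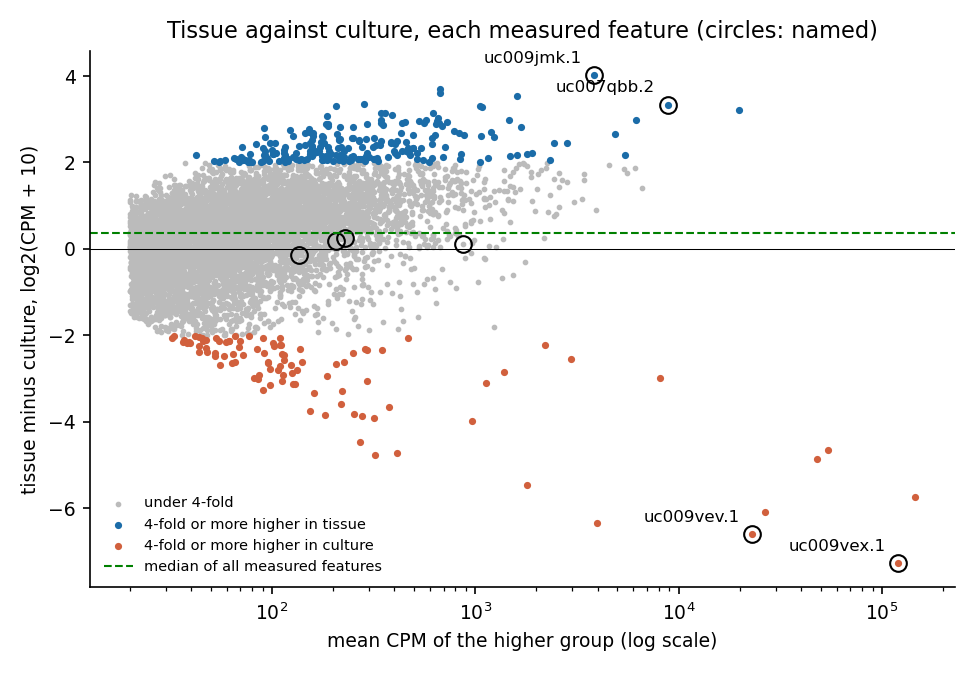
Tissue minus culture difference in mean log2(CPM + 10) (vertical axis) against the mean CPM of the higher setting (horizontal axis, log scale) for the 7248 measured features, with 4-fold differences coloured, the named features circled and the median of 0.37 dashed. The 217 features higher in tissue reach a log2 difference of about 4.02, and the features with the highest levels in culture lie far below 0.

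The features named are those with the widest gap between the settings, measured from the lowest library of the higher setting to the highest library of the other. The first, uc009jmk.1:uc009jml.1, was at 4563, 5559, 4045, 2258 and 2844 CPM in tissue libraries 1 to 5 and at 238, 167, 209 and 263 CPM in cultured libraries 1 to 4. The lowest tissue library was above the highest cultured one by 3.05 on the log2 scale. Its means were 3854 CPM (SD 1324, n = 5) and 219 CPM (SD 41.3, n = 4), 17.6-fold apart. Summed over libraries it stood at 3910.04 CPM in tissue (exact Poisson 95% interval 3899.6 to 3920.5) and 209 CPM in culture (205 to 212).

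The second, uc007qbb.2, read 9442, 8168, 8215, 7635 and 10691 CPM in the tissue libraries, beside 571, 797, 1024 and 1160 CPM in culture. It was even among the tissue neurons, with a range of only 0.49 on the log2 scale, and the settings did not overlap. The means of 8830.2 CPM (SD 1233, n = 5) and 888 CPM (SD 259, n = 4) were 9.94-fold apart, a log2 difference of 3.34, or 2.57 with the trimmed scaling. Summed, it stood at 8801 CPM in tissue (exact Poisson 95% interval 8785 to 8817) and 842 CPM in culture (836 to 849).

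In the other direction, uc009vev.1 read 162, 137, 375, 353 and 186 CPM in the tissue libraries, beside 27558, 22575, 25985 and 16279 CPM in culture. All cultured libraries were within a range of 0.76 on the log2 scale, and the gap to the highest tissue library was 5.40. The means were 242 CPM (SD 113, n = 5) and 23099 CPM (SD 4999.8, n = 4), 95.3-fold apart. Summed, it stood at 246 CPM in tissue (exact Poisson 95% interval 244 to 249) and 24079 CPM in culture (24044.5 to 24114).

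The feature uc009vex.1 was less even in culture, at 83324, 199719, 161360 and 35562 CPM, and lay at 443, 284, 655, 1347 and 901 CPM in tissue. Libraries 2 and 3 were high and library 4 low, as for the top 6 features together, of which uc009vex.1 and uc009vev.1 are members. Its mean was 165-fold higher in culture, a log2 difference of −7.27. Summed, it stood at 708 CPM in tissue (exact Poisson 95% interval 703 to 712) and 138818 CPM in culture (138735 to 138902).

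Some features were steady across the 9 libraries. Among 405 features that reached 100 CPM in each of the 9 libraries, uc007lrq.2:uc007lrr.2:uc007lrs.2 had the smallest range. It was at 103, 152, 132, 102 and 123 CPM in tissue and 170, 134, 116 and 125 CPM in culture, a range of 0.69 on the log2 scale. Next came uc008oug.1:uc008ouf.1, at 177, 163, 266, 169 and 257 CPM in tissue and 165, 152, 230.2 and 163 CPM in culture. Steadiness here holds for CPM over all assigned reads. With the trimmed scaling their tissue minus culture differences were −0.89 and −0.56 on the log2 scale, instead of −0.14 and 0.19. Nor was the first steady elsewhere: uc007lrq.2:uc007lrr.2:uc007lrs.2 was at 22.6 to 51.3 CPM in tissue pipette neurons against 229.8 to 372 CPM in cultured ones, and at 1.52 and 0.378 CPM in cortical tissue against 71.9 to 128 CPM in cortical culture.

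Others differed mainly between neurons of a setting. In tissue the widest range among features whose mean log2 level differed by less than 2-fold between settings was that of uc008zdf.2, at 252, 875, 2.93, 0.249 and 15.8 CPM, against 75.8, 16.5, 32.3 and 56.2 CPM in culture. Tissue libraries 1 and 2 were above all cultured libraries, while libraries 3, 4 and 5 were below all of them. In culture the widest range was that of uc008vfx.1:uc008vfz.1:uc008vfy.1, at 2739 CPM in library 1 and 324, 253 and 159 CPM in libraries 2, 3 and 4. Its range was wider still in tissue, at 1348, 1644, 477, 857 and 19.0 CPM, with 5.83 against 4.02 on the log2 scale.

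Libraries outside the comparison gave a separate reading of the same features. Hippocampal neurons drawn up by pipette (3 from tissue, 3 from culture) and cortical TIVA neurons (2 from tissue, 4 from culture) share no library with it. The labels are not clear on either collection: the tissue pipette libraries have a source name that says pipette and no treatment, but their extract protocol describes TIVA capture, and the protocol of the cortical tissue libraries names CA1 as the site. They are used here as their source names say. Tag concentration, loading time and laser settings differed between tissue and culture in the cortical TIVA libraries just as in the hippocampal ones. In cortex too, the effect of these settings and that of the cells' surroundings cannot be told apart. Of the 217 features higher in tissue by TIVA, 128 (59.0%) were higher in tissue by pipette as well, beside 29.6% of all 7248 measured features, and 39 were 4-fold higher, beside 1.72%. Of the 60 features that passed under all scalings, 51 (85.0%) were higher in tissue by pipette and 21 were 4-fold higher. Of the 98 features higher in culture by TIVA, 61 (62.2%) were higher in culture by pipette, which is below the 70.4% of all measured features, and 17 were 4-fold higher, beside 7.67%. Another 11 (11.2%) were 4-fold higher in tissue by pipette, beside 1.72%. The direction by pipette depended on the setting: with the trimmed scaling 73.5% were higher in culture, beside 70.2% of all measured features, and with a pseudocount of 1 CPM 85.0%, beside 74.6%.

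In cortical neurons both sets were above the background. Of the 98 features higher in culture, 93 (94.9%) were also higher in culture in cortical TIVA neurons, beside 74.4% of all measured features, and 62 were 4-fold higher, beside 16.4%. Of the 217 features higher in tissue, 126 (58.1%) were higher in cortical tissue, beside 25.6%, and 40 were 4-fold higher, beside 3.02%. For the 60 features higher in tissue under all scalings the count was 36 (60.0%).

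For both sets the level in bulk hippocampus lay between the settings and nearer to culture. Both sets were picked by their difference between tissue and cultured TIVA neurons, so another group tends to fall between these. The order is therefore a description and no separate evidence. The 98 features higher in culture had a median level of 110 CPM in cultured TIVA neurons, 96.0 CPM in bulk hippocampus and 8.58 CPM in tissue TIVA neurons. The tissue value is a median of means over 5 libraries, and within single tissue libraries the median was 0.365 to 4.16 CPM. In cultured pipette neurons, labelled as given no treatment, it was 21.2 CPM, and in tissue pipette neurons 12.96 CPM. In bulk tissue, fewer cells of a type and less RNA per cell cannot be told apart. The 217 features higher in tissue had medians of 227 CPM in tissue TIVA neurons, 75.2 CPM in bulk and 32.0 CPM in cultured TIVA neurons. The median was 157 CPM in tissue pipette neurons and 92.1 CPM in cultured ones.

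Single features followed different lines across these libraries. Levels of uc007qbb.2 were higher in tissue in each collection, at 9823, 12684 and 14564 CPM in tissue pipette neurons against 3738, 3511 and 6110 CPM in cultured ones, and at 11947 and 9216 CPM in cortical tissue against 513, 1463, 1104 and 1225 CPM in cortical culture. It was lower in bulk hippocampus than in any single tissue neuron, at 1674, 2375 and 2685 CPM. The feature uc009jmk.1:uc009jml.1 was higher in tissue by pipette, at 3567, 667 and 2773 CPM against 386, 249.6 and 565 CPM, and was low in cortex, at 304 and 18.3 CPM in tissue and 21.6 to 45.9 CPM in culture. For uc009vev.1 the order by pipette was opposite to that by TIVA, with 3888, 4741 and 2808 CPM in tissue and 120, 485 and 34.6 CPM in culture. In cortical TIVA neurons it was as in the hippocampus, with 3324 and 396 CPM in tissue and 10804 to 24413 CPM in culture.

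**Figure D5:**
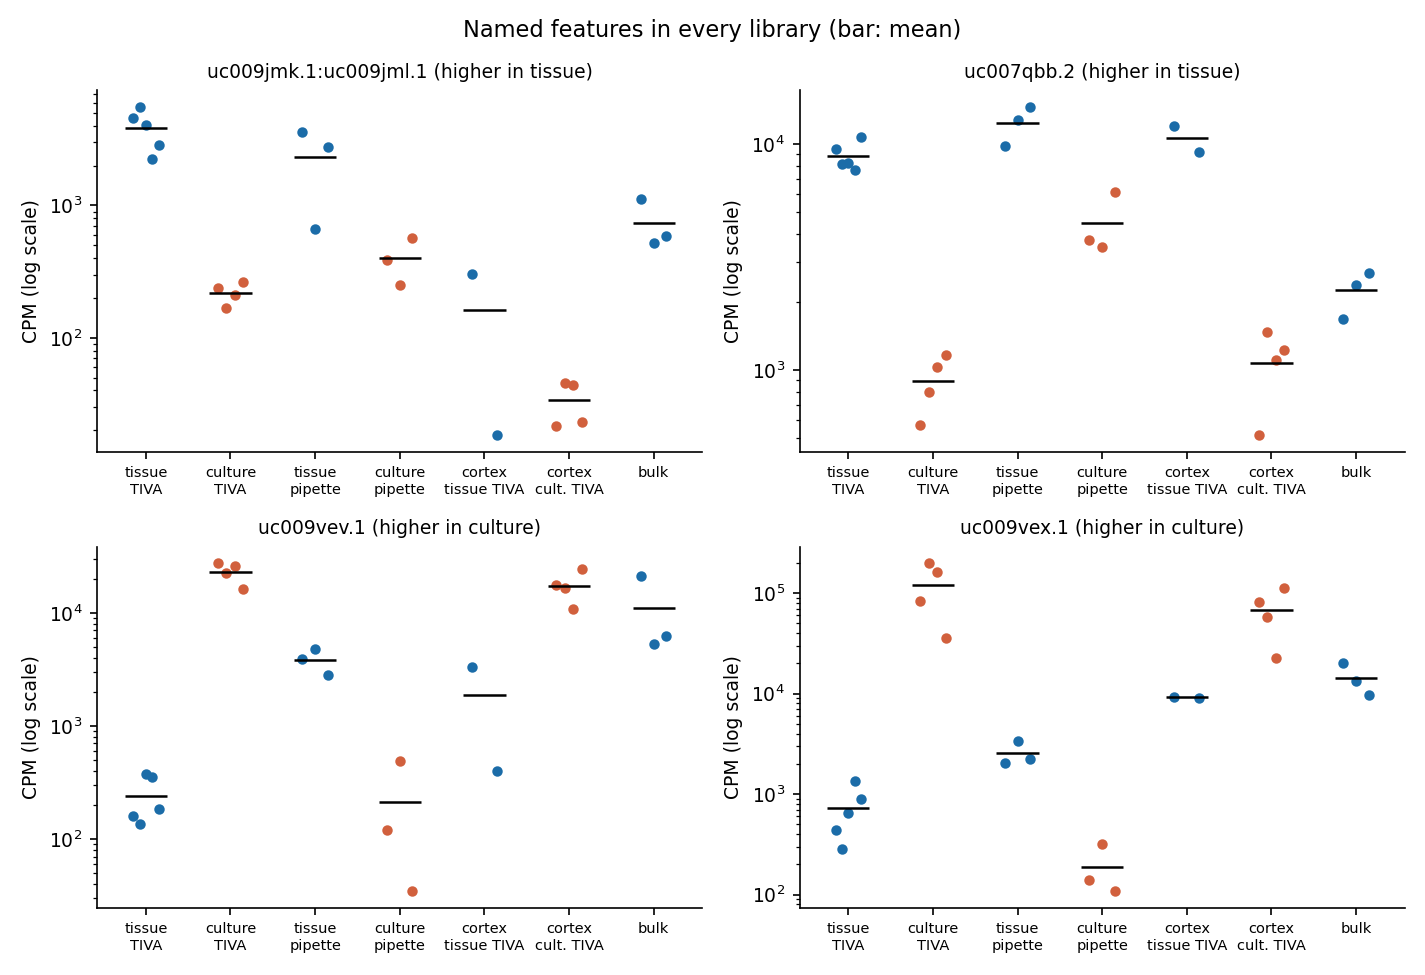
CPM (vertical axes, log scale) of the 4 features with the widest gaps in every library of 7 groups (horizontal axes), with points for libraries and bars for means. The feature uc007qbb.2 is higher in tissue than in culture in all 3 pairs of groups, and uc009vev.1 and uc009vex.1 are higher in culture by TIVA and lower in culture by pipette.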

How the data were processed

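Per the labels, the libraries are polyadenylated RNA of single cells, prepared with TruSeq for paired-end sequencing. The deposited tables hold whole-number read counts per UCSC known-gene feature; per the submitters' processing notes, CASAVA 1.8.1, HTSeq and the genome build mm9 were used. Not given in the sources used here: aligner, strand use and how HTSeq treated overlaps. Overlapping, antisense and near-identical features could therefore share or lose reads. The 5 HTSeq summary lines were left out of library totals. Libraries are numbered in record order, and the numbers pair nothing. CPM, thinning (1 fixed seed), correlations and SDs were computed with Python 3.11.15, numpy 2.4.6 and pandas 2.3.3, and scaling factors with edgeR 4.0.16 (TMM) and DESeq2 1.42.0. The fold count was run on simulated counts with planted changes. Apart from these changes, both simulated settings shared the same profile. The simulation did not include the concentration of reads in culture alone or the on-off features of tissue. It therefore checked the calculation and not the features called here. Named features averaged at least 100 CPM in the higher group, with at least 10 reads in each of its libraries and no overlap with the other group; they were ranked by the gap in log2(CPM + 10), and 2 were printed per direction. The 2 most even features, and the most variable feature of each group, complete the rule. Gene lists could not be used without symbols, and the 4 cultured cortical pipette libraries were not used. The comparison and rules were chosen with earlier results of these data known. Alternatives covered depth, detection limit, pseudocount, filter, scaling, fold and each library left out.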

Additional observations from a re-analysis of the deposited data

Results flagged for a closer look

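Of 36 groups of values checked for a library that stands apart from the rest, 5 had one; chance alone gives about 1 in 20. Tissue library 5 had an ambiguous share of 2.54%, above 1.87% to 2.04% in the other tissue libraries. Cultured library 4 held 3.31% of its reads in the features 4-fold higher in tissue, above 1.27% to 1.59% in the other cultured libraries. The feature uc008oug.1:uc008ouf.1 was at 230.2 CPM in cultured library 3 and at 152 to 165 CPM in the others. The feature uc008zdf.2 was at 875 CPM in tissue library 2, with 252 CPM as the next highest. The feature uc008vfx.1:uc008vfz.1:uc008vfy.1 was at 2739 CPM in cultured library 1, with 324 CPM as the next highest. For the last 2 features a wide range was the reason for naming them.

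Both features named as higher in culture by TIVA went the opposite way in hippocampal pipette neurons, with no overlap in either collection. The tissue minus culture difference of uc009vev.1 was 4.72 on the log2 scale by pipette and −6.60 by TIVA. For uc009vex.1 it was 3.798 by pipette and −7.27 by TIVA. The difference between the collections was not tested, and the extract protocol of the tissue pipette libraries describes TIVA capture, against their source name.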

How the results depend on the processing

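Over 26 results and 331 alternatives, 270 values stayed within a yardstick, 54 moved further and 7 others changed sign. The yardstick was the SD over libraries, or over pairs of libraries for correlations, on-off shares and the median log2 difference. For shares of a set it was their binomial interval, and counts had to stay within 1.5 times. For the differences in SD it was the SD of the leave-out values, so these were judged against their own scatter. Of those 270 and 54, 18 also changed sign, all of them differences near 0 of 3 features named as even or variable (uc008oug.1:uc008ouf.1, uc008zdf.2 and uc008vfx.1:uc008vfz.1:uc008vfy.1). The cause was not tested. No paired analysis was possible because the labels give no replicate numbers. The difference in detected features was −4415.5 at 10 reads, −1134.5 at 10 CPM, 1318 at 50 CPM and −377.5 at 50 CPM outside the 50 most abundant features, and −6124 to −5597.5 with a library left out. The difference in the share of the 50 most abundant features was −35.7 percentage points, −20.2 for 500 features, 2.53 without the 6 shared features (a setting chosen after seeing the data), and −45.4 to −25.98 with a library left out. Features 4-fold higher in tissue numbered 486 with a pseudocount of 1 CPM, 51 with 50 CPM, 134 with TMM, 63 with DESeq2, 71 outside the 50 most abundant features, 56 outside the 6 shared features, 440 with summed counts, 1657 at 2-fold and 16 at 8-fold, and 183 to 350 with a library left out, the highest without cultured library 4. Those higher in culture numbered 702, 23, 149, 221, 456 and 403 under the first 6 of these settings, 54 with a filter of 100 CPM, 661 at 2-fold and 29 at 8-fold, and 84 to 140 with a library left out. The median log2 difference was 0 with no filter, 0.86 at 100 CPM, 0.77 with summed counts, −0.19 with DESeq2, −0.38 outside the 50 most abundant features and −0.40 outside the 6, and 0.24 to 0.52 with a library left out. Median r was 0.567 within tissue and 0.572 between settings by Spearman, and 0.546 and 0.560 with 1 CPM; with a library left out it was 0.593 to 0.644 within tissue, 0.810 to 0.876 within culture and 0.620 to 0.639 between. The on-off share was 14.9% in tissue and 0.162% in culture with on at 20 CPM, 4.10% in tissue at 100 CPM, and 7.22% to 10.96% in tissue and 0% to 0.0317% in culture with a library left out. The tissue minus culture difference in SD at 20 to 100 CPM was 0.65, 0.77 outside the 50 most abundant features, 1.26 with 1 CPM, and 0.56 to 0.81 with a library left out; at 300 CPM or more it was −0.19, 0.077 outside the 50, and −0.26 to 0.14 with a library left out, the highest without cultured library 4. Shares with the same direction by pipette became 76.1% (tissue) and 73.5% (culture) outside the 50, and 45.1% and 85.0% with 1 CPM. Of all measured features, 29.8% and 25.4% were higher in tissue by pipette under these settings, and 70.2% and 74.6% higher in culture. In cortex the tissue share was 41.98% with 1 CPM, beside 20.99% of all measured features. With a library left out these shares were 55.1% to 64.2% and 60.9% to 68.3% by pipette and 54.2% to 59.5% and 90.6% to 96.4% in cortex. The differences of the no-feature and ambiguous shares were 2.14 to 7.74 and −8.41 to −6.95 points with a library left out. The 4 named differences with wide gaps kept their direction in the settings run for them. These were TMM, DESeq2, outside the 50, 1 CPM and each library left out. The 4 features were picked for no overlap and a wide gap, so leaving out a library could not reverse them. Their kept direction is thus no separate support. Depth limits values near 0: 3 reads are worth up to 0.329 CPM.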
